A study of Drosophila ananassae and Drosophila erecta and Drosophila sechellia with 40 samples.

Results

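The genes hedgehog (hh), patched (ptc), smoothened (smo), cubitus interruptus (ci), engrailed (en), invected (inv), wingless (wg) and decapentaplegic (dpp) were taken by name as the core of the segment polarity and growth factor system that lays out the antennal disc. They are 8 of the 27412 gene names listed at any stage, and all 8 were listed at each of the 4 stages, among 24678 names for 3L, 24874 for p8, 25602 for p40 and 25214 for adults. RNA was sequenced from antennal discs of wandering last instar larvae (3L) and of pupae 8 hours after puparium formation (p8), from pupal antennae at 40 hours (p40) and from antennae of mature adults of both sexes (AA). The species were D. sechellia, D. simulans, D. erecta, D. ananassae and D. virilis, each a wild-type strain. Pupae of D. virilis were taken at 10 and 48 hours, which the paper set by its slower development and by matching antennal morphology. Each of the 20 groups of species and stage had 2 libraries, 40 in all, from pools of about 70 discs or pupal antennae or 300 adult antennae. D. melanogaster, as the w1118 strain, was present only as the authors' mean at each stage, with no libraries and so no spread.

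In a disc, cells of the posterior compartment express the paired homeodomain proteins Engrailed and Invected and secrete Hedgehog. Cells of the anterior compartment carry the receptor Patched, which holds back the membrane protein Smoothened until Hedgehog binds it, and Smoothened in turn controls whether the zinc finger protein Cubitus interruptus acts as an activator or a repressor. Along the border between the compartments this signal turns on ptc itself and, in complementary sectors of the antennal disc of D. melanogaster, the secreted factors wg and dpp, which together set where the appendage grows out. The same genes are used in the eye disc, where hh and dpp travel with the front of photoreceptor differentiation.

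The values are normalized counts, that is reads per gene divided by a size factor of the library, computed by the authors with all species of a stage together, and listed as the mean over libraries. They are not divided by transcript length, so levels were not compared between genes, and a ratio of 2 genes was compared only between species or stages. Each species was mapped to its own transcripts, so differences in transcript models between species remain in the values. The 2 libraries behind a mean were recovered from it and from the size factors and are given below as library values. Recovery gave a single pair of whole read counts for 97.1% to 99.3% of the values at 3L, 98.2% to 99.5% in AA and 100% at p8 and p40. Libraries held 17767648 to 26658372 reads at p8 and 11738398 to 23729891 at p40, and depth is unknown at 3L and in AA, where the highest counts could not be resolved. The study describes the 2 libraries of a group as biological replicates, and p-values measure the spread between them. All 8 fixed markers of the antennal disc were above 0 in every species at 3L, p8 and p40, and the odorant co-receptor Orco was between 28702 and 50964 in AA.

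Markers of neighbouring tissues were measured beside these. The summed level of 10 eye markers, given in ppm, that is in parts per 1000000 of all values listed for that species and stage, lay between 177 and 415 at 3L and between 341 and 649 at p8, and the markers so and ninaC were listed at 0 in D. simulans. At p8 sens was highest of these markers in D. melanogaster (normalized count 2274) and at 927 to 1153 in the other species. How much of these sums came from eye tissue was not tested. In adults the summed level was 2.87 to 67.0 in the species other than D. sechellia and 849 in D. sechellia, where the normalized counts of these markers summed to 1347 in 1 library and 26582 in the other. The 5 fat body markers summed to 4441 ppm in D. ananassae and 2523 in D. simulans at 3L, against 29.2 to 359 in the other species. In bulk tissue, fewer cells that express a gene and less RNA per cell cannot be told apart.

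**Figure D1:**
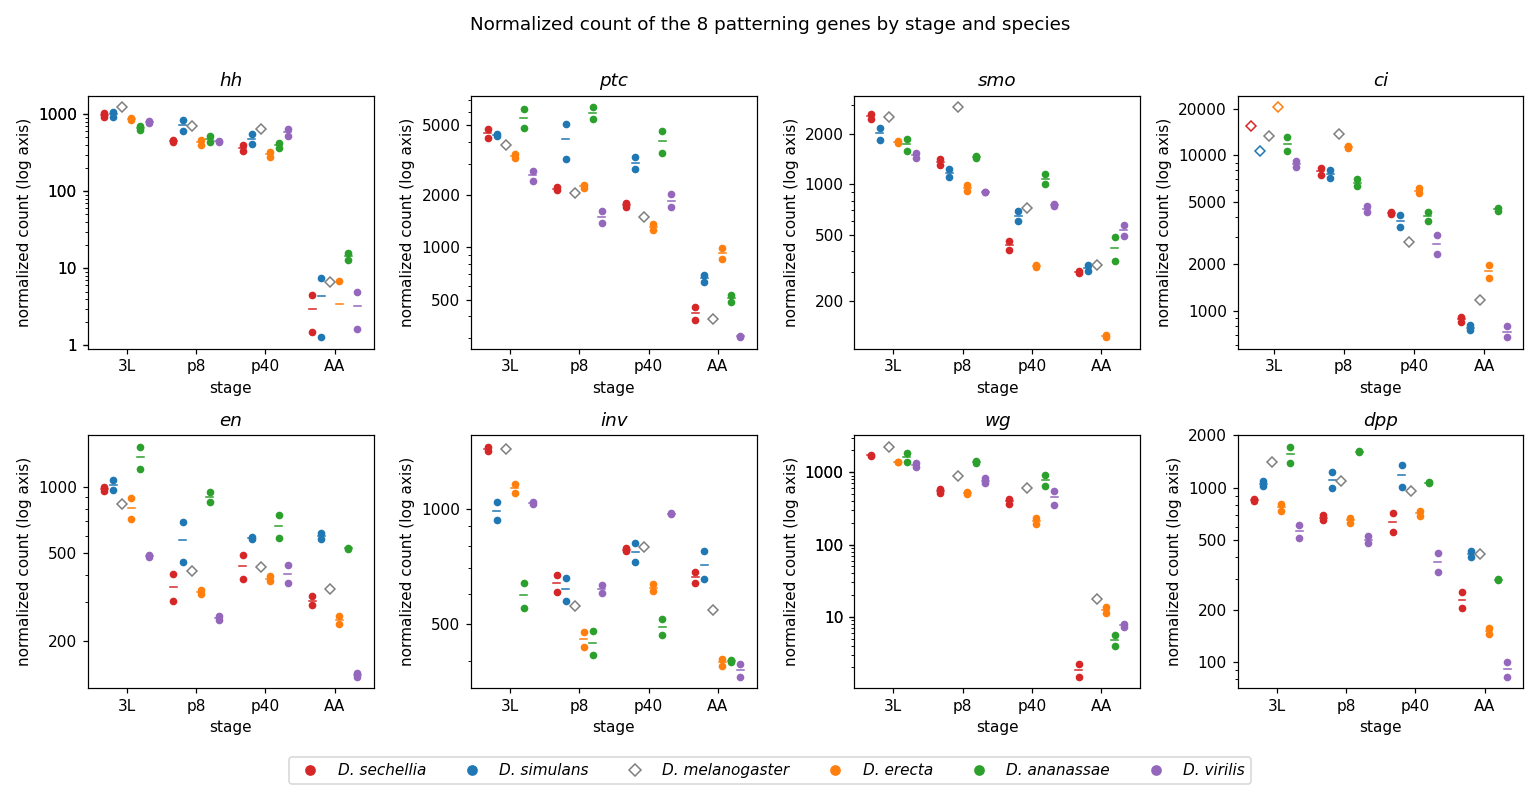
Normalized count (log axis) of the 8 genes by stage, with a panel per gene and its own axis. Points are the 2 recovered libraries of a species, short bars their mean, and open diamonds authors' means without libraries (D. melanogaster at each stage, and ci at 3L in D. sechellia, D. simulans and D. erecta). wg has no D. simulans value and the D. erecta library at 0 for hh in AA cannot be drawn. hh and wg fall to between 0 and 17.6 in adults, and ci stays near 4483 in D. ananassae.

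The first question was how the level of each gene changed through the life of the antenna. Because each stage was normalized on its own, stages were compared as a description only, with no test, on the ppm scale. All 8 genes were lower in AA than at 3L in every species with a value, and so were 35.5% of the 7006 genes above 0 in all 24 columns. The size of the decline differed between genes, with hh and wg nearly lost and the smallest median falls in en and inv.

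The ligand hh stood at 37.0 to 81.5 ppm at 3L and at 0.180 to 0.825 in adults. The adult libraries held between 0 and 16 reads of it, as the library values of 4.45 and 1.49 (D. sechellia), 1.28 and 7.42 (D. simulans), 0 and 6.90 (D. erecta), 16.0 and 12.7 (D. ananassae) and 1.61 and 4.86 (D. virilis) show. Both D. ananassae libraries lay above all the others, and the other species overlapped. The fall from 3L to AA was 44.8-fold in D. ananassae and 220.5- to 339.5-fold in the other species. With no minimum on the values, the species difference of hh in AA did not pass limma's test (log2 range 2.44, adjusted p = 0.31), nor did D. ananassae against D. sechellia, D. simulans and D. erecta (log2 difference 2.10, adjusted p = 0.071).

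wg, the Wnt ligand, followed the same course in the 5 species in which it was listed. It stood at 76.0 to 148 ppm at 3L, at 27.7 to 74.6 at p8, at 12.8 to 48.2 at p40 and at 0.113 to 0.977 in AA. The adult libraries held 2 to 12 reads. The fall from 3L to AA ranged from 123-fold in D. erecta to 951-fold in D. sechellia. In D. simulans wg was listed at 0 at all 4 stages, and a listed 0 does not tell a gene without reads from an ortholog the authors did not join, so no level is given there.

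The transducers fell less steeply. ptc dropped from 155–308 ppm at 3L to 17.8–51.1 in AA, a 4.02-fold fall in D. erecta and a 6.72- to 11.7-fold fall in the other species. smo fell 2.90-fold in D. virilis and 16.1-fold in D. erecta, the ends of its range. ci fell 12.5- to 18.4-fold in 5 species but only 2.58-fold in D. ananassae, where its level did not drop between p40 (253 ppm) and AA (257 ppm).

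The posterior genes en and inv had the smallest median falls of the members, with median log2 changes of -1.63 and -1.33 from 3L to AA. The ligand dpp fell further (median -2.18), though less than smo (-2.91), and its range overlapped those of smo and ptc. en was 1.72- to 3.61-fold lower in AA than at 3L, inv 1.40- to 3.17-fold and dpp 2.55- to 6.38-fold. D. simulans was at the low end of the fall for all 3. Within the series of stages, inv was higher at p40 than at p8 in 6 of 6 species by 0.35 to 0.97 on the log2 scale, and en in 5 of 6, with overlapping libraries in D. sechellia and D. simulans and a lower value in D. ananassae (-0.20, also overlapping). Between p8 and p40, 25.7% of the 7006 genes were higher in all 6 species.

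The larval to early pupal step depended on the scale. On the ppm scale 6 of the 8 genes (hh, ci, en, inv, wg and dpp) were lower at p8 than at 3L in every species with a value, but so were 45.3% of the 7006 genes, whose median shift was -0.50 on the log2 scale. After scaling each column to the median of the genes above 50 in all columns, hh, en and inv alone were still lower in all 6 species, and dpp was higher in all 6, with a median change of 0.23 in place of -0.34. On that scale 15.4% of the 7006 genes were lower in all 6 species and 22.5% higher. The exceptions to the fall on the ppm scale were smo in D. melanogaster, at 167 at 3L and 172 at p8, and ptc in D. ananassae, at 308 and 315, with overlapping libraries.

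The second question was how far the species differed at a given stage. limma's test over the 5 species with libraries was run within each stage on log2(value + 1), over genes above 0 in all 5 species and at 30 or more in at least 1. It called 94.3% of 6994 genes (3L), 91.2% of 7658 (p8), 90.2% of 8052 (p40) and 94.8% of 7595 (AA) at an adjusted p under 0.05, so a call by itself says little about these genes. All members tested were called, 6 in the larval disc, 7 at both pupal stages and 6 in adults. ci at 3L was not tested, because its counts could not be resolved in D. sechellia, D. simulans and D. erecta, hh in AA was under the minimum, and wg was not tested because of its 0 in D. simulans. The range between the highest and the lowest species ran from 0.58 to 1.48 at 3L, with a median of 1.18 against 1.46 over all genes tested, and in AA from 0.91 to 2.62, with a median of 2.09 against 1.74.

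**Figure D2:**
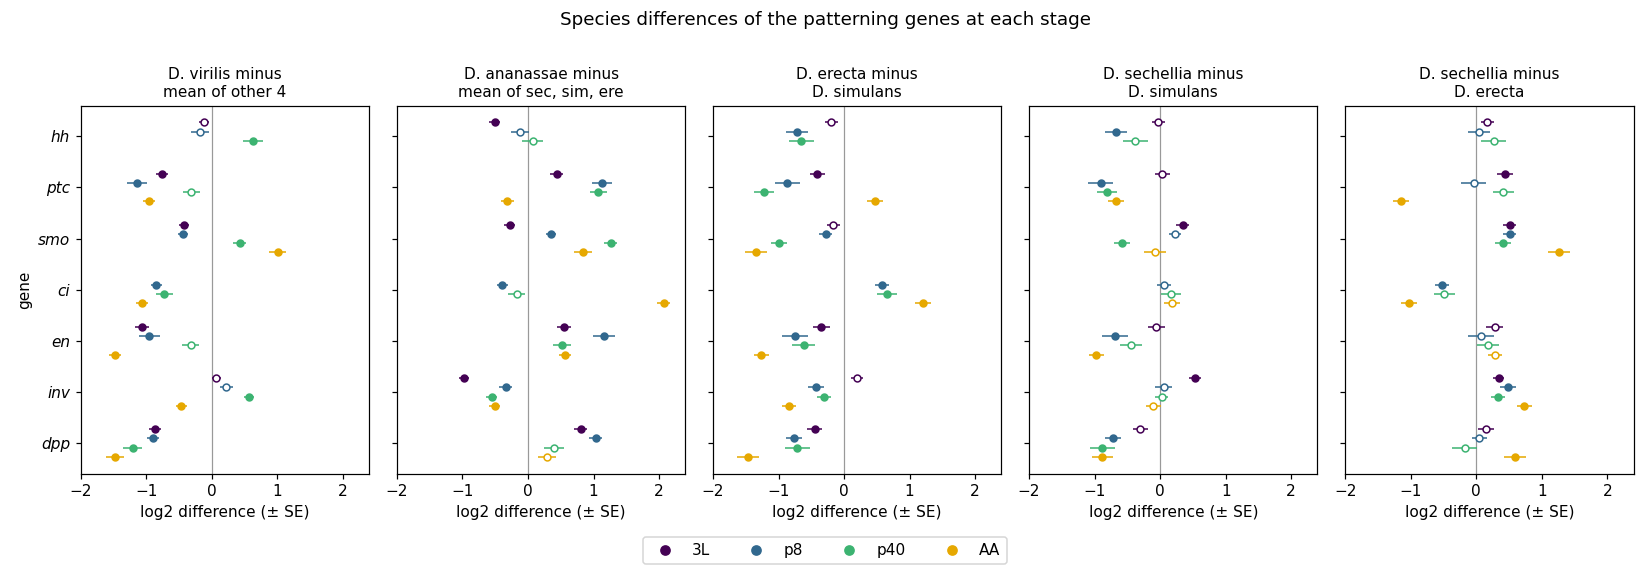
Log2 difference between species (x axis, ± SE from limma on log2(value + 1)) for 7 genes in 5 comparisons, with a colour per stage. Filled points have an adjusted p under 0.05. In D. virilis ptc, ci, en and dpp lie below 0 at each stage tested, in D. ananassae en lies above 0 and inv below 0 at all 4 stages, and D. erecta lies below D. simulans except in ci, in ptc in AA and in inv at 3L.

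hh, the ligand, had the narrowest range of the 6 members tested at 3L. There its libraries were at 924 and 1026 (D. sechellia), 923 and 1067 (D. simulans), 899 and 836 (D. erecta), 629.8 and 696 (D. ananassae) and 812 and 772 (D. virilis), with the mean of D. melanogaster at 1238. Both D. ananassae libraries lay below all the others, and those of D. simulans and D. sechellia overlapped. The range was 0.58 on the log2 scale (adjusted p = 0.00163), and D. ananassae was lower than D. sechellia, D. simulans and D. erecta by 0.51 ± 0.08 (SE, adjusted p = 0.000392).

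At p8 hh stood at 838 and 605 (D. simulans) and between 402 and 518 in the 8 libraries of the other species. D. simulans was thus above the rest without overlap, although its libraries differed from each other more than those of any other species. D. sechellia and D. erecta were lower than D. simulans by 0.67 ± 0.17 (adjusted p = 0.00926) and 0.72 ± 0.17 (adjusted p = 0.00579). The call of hh at p8 (adjusted p = 0.0135) rested on D. simulans, since without that species the adjusted p was 0.753, and without the higher of its libraries it was 0.090. At p40 D. virilis had the highest mean, with libraries at 527 and 644 that overlapped those of D. simulans (409 and 552), and D. erecta was lowest without overlap (327 and 279). D. virilis exceeded the other 4 by 0.62 ± 0.15, adjusted p = 0.0071, and without its higher library the species test gave an adjusted p of 0.0525 (0.0759 without D. virilis), and that excess itself fell to 0.48 and was not called.

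ptc encodes the Hedgehog receptor and is itself a target of the signal. At p8 its libraries were at 6369.6 and 5467 (D. ananassae), 5112 and 3226 (D. simulans), 2183 and 2278 (D. erecta), 2129.9 and 2204 (D. sechellia) and 1380.1 and 1606 (D. virilis). D. ananassae lay above and D. virilis below all the others, and D. erecta and D. sechellia overlapped. D. ananassae was higher than D. sechellia, D. simulans and D. erecta by 1.13 ± 0.16, adjusted p = 0.000292, and D. virilis lower than the other 4 by 1.14 ± 0.15, adjusted p = 0.000203. The mean of D. melanogaster, 2059, was close to D. sechellia and D. erecta.

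In adults ptc changed its order. The libraries of D. erecta, 860.2 and 982, were now above those of D. simulans (695 and 629), D. ananassae (531 and 486), D. sechellia (450.5 and 383) and D. virilis (309.8 and 304), in that order and without overlap. D. erecta exceeded D. simulans by 0.47 ± 0.12, adjusted p = 0.00876, although it had been lower by 1.22 ± 0.16 (adjusted p = 0.000535) at p40. The call of D. erecta over D. simulans in AA did not hold without the higher D. erecta library (0.38) or without the lower D. simulans library (0.40).

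smo, the signal transducer at the membrane, had means from 1490.1 (D. virilis) to 2559 (D. sechellia) at 3L. The adult libraries stood at 573 and 491 (D. virilis), 347 and 482 (D. ananassae), 329.8 and 303 (D. simulans), 297 and 304 (D. sechellia) and 122 and 127 (D. erecta). D. erecta was below every other library, D. virilis above every other library, and D. simulans and D. sechellia overlapped. D. erecta was lower than D. simulans by 1.34 ± 0.17 (adjusted p = 0.000191), and D. virilis higher than the other 4 by 1.005 ± 0.13, adjusted p = 0.000179. At p8 the mean of D. melanogaster, 2895, lay above all libraries of the other species (895 to 1484), and its position could not be tested.

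ci, the transcription factor at the end of the pathway, was highest in D. erecta among the libraries through pupal life. At p8 D. erecta stood at 11123 and 11543 against 7524 and 8256 (D. sechellia), 8037 and 7129 (D. simulans), 7016 and 6363 (D. ananassae) and 4342 and 4749 (D. virilis). D. erecta exceeded D. simulans by 0.58 ± 0.11, adjusted p = 0.00161 at p8, by 0.65 ± 0.16, adjusted p = 0.0107 at p40 and by 1.21 ± 0.12, adjusted p = 5.11e-05 in AA. D. virilis was lowest at each of these stages, and overlapped D. simulans in AA. The means at 3L, with no test, ran from 8832 in D. virilis to 20487 in D. erecta.

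The widest range among the members tested, 2.62 on the log2 scale, was that of ci in the adult antenna, where D. ananassae stood apart. Its libraries were at 4351 and 4614, against 1621 and 1979 (D. erecta), 914 and 838 (D. sechellia), 744 and 804 (D. simulans), 673 and 789.6 (D. virilis) and a mean of 1173 in D. melanogaster. D. ananassae was far above the rest and D. erecta above the remaining species, without overlap. The difference from D. sechellia, D. simulans and D. erecta was 2.07 ± 0.10, adjusted p = 7.56e-07, and it was 2.11 and 2.03 when either D. ananassae library was left out. At p8 D. ananassae had been lower than these species by 0.39 ± 0.09 (adjusted p = 0.00416), a call lost without the lower D. ananassae library (-0.32), and at p40 the difference was -0.17 ± 0.13, adjusted p = 0.276. Among the marker lists in AA, the sum of the 4 neuron markers was highest in D. ananassae, at 2733 ppm with all 4 above 0. It was 616 to 911 in the other species with libraries and 2487 in D. melanogaster, and para was at 0 in D. simulans. The normalized counts of nSyb, Syt1 and para were each highest in D. ananassae. That of elav was 1187 there, below D. melanogaster (4930), D. simulans (3533) and D. virilis (1266). Eye and fat body markers were lowest in D. ananassae, at 2.87 and 2.33 ppm. Muscle (188 ppm) and trachea markers (0.196 ppm, with btl at 0) were also lowest there. The adult antenna markers, like the neuron markers, had their highest sum in D. ananassae, at 13590 ppm against 5329 to 11917 in the other species. Antennal disc, haemocyte and glia sums lay within the range of the other species. The part of these markers in the result was not tested.

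dpp, the BMP ligand, separated D. virilis from D. ananassae at the disc stages. At 3L its libraries were at 1393 and 1722 (D. ananassae), 1022 and 1091 (D. simulans), 845 and 869 (D. sechellia), 806 and 739 (D. erecta) and 513 and 612 (D. virilis). No neighbours in this order overlapped. D. virilis was lower than the other 4 by 0.86 ± 0.09 (adjusted p = 2.91e-05) at 3L and by 1.48 ± 0.13 (adjusted p = 1.67e-05) in AA. The eye markers, whose tissue also makes dpp, summed to 177 ppm in D. virilis at 3L, the lowest of the 6 species, and to 346 at p8, within the range of the others, and their part in the result was not tested.

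D. sechellia and D. erecta were both below D. simulans in dpp at every stage, and both differences were called from p8 on. At p40 the D. erecta call (-0.71) was lost without either D. erecta library (-0.76 and -0.66) or the higher D. simulans library (-0.49). The D. sechellia call at p40 (-0.89) was lost without the lower D. sechellia library (-0.71). At 3L the difference was -0.45 ± 0.12 for D. erecta (adjusted p = 0.00889). That of D. sechellia at 3L, -0.30 ± 0.12, did not pass limma's test (adjusted p = 0.0587), although the libraries did not overlap. In AA the libraries were at 436 and 401 (D. simulans), 299 and 295 (D. ananassae), 204 and 253 (D. sechellia), 156 and 145 (D. erecta) and 100.02 and 82.6 (D. virilis), with D. melanogaster at 418. D. sechellia was lower than D. simulans by 0.88 ± 0.16 (adjusted p = 0.00247) and D. erecta by 1.47 ± 0.16 (adjusted p = 0.000101). Without the adult D. sechellia library rich in eye markers the difference of D. sechellia was -1.04, and D. sechellia was no longer called against D. erecta (0.43, or 0.53 without the lower D. erecta library, in place of 0.59 ± 0.16).

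wg could be tested only without D. simulans, an alternative added after seeing the data. At p8 its libraries were at 1448 and 1353 (D. ananassae), 711 and 826 (D. virilis), 590.3 and 514 (D. sechellia) and 534 and 502 (D. erecta), with D. melanogaster at 875. D. ananassae was highest without overlap, and D. sechellia and D. erecta overlapped. The ranges over the 4 species were 0.44 at 3L (adjusted p = 0.0312), 1.43 at p8 (adjusted p = 3.76e-05) and 1.83 at p40 (adjusted p = 0.00321), beside 92.6%, 90.5% and 88.8% of all genes called. D. sechellia exceeded D. erecta at p40 by 0.89 (adjusted p = 0.0424), while at 3L (0.29, adjusted p = 0.0914) and p8 (0.09, adjusted p = 0.542) the difference did not pass.

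The relative level of the 2 growth factors also shifted. wg over dpp, computed within a library so that size factors cancel, was 2.30 and 2.21 (D. virilis) at 3L, 1.99 and 1.99 (D. sechellia), 1.75 and 1.88 (D. erecta) and 1.004 and 1.07 (D. ananassae). At p40 it was 1.06 and 1.29 (D. virilis), 0.840 and 0.599 (D. ananassae), 0.516 and 0.755 (D. sechellia) and 0.319 and 0.276 (D. erecta). The ratio was lower at p40 than at 3L in each of these species, and D. virilis was highest at both stages.

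The paralogs en and inv, neighbouring genes in D. melanogaster with overlapping functions in the posterior compartment, did not share an order of species. At 3L the en libraries were at 1209.7 and 1529 (D. ananassae), 973 and 1074 (D. simulans), 957 and 1001 (D. sechellia), 895 and 720.4 (D. erecta) and 494 and 481 (D. virilis). Those of inv were at 550.0 and 640.4 (D. ananassae), 936 and 1040.3 (D. simulans), 1452 and 1412 (D. sechellia), 1099 and 1163 (D. erecta) and 1041 and 1027 (D. virilis). D. ananassae was thus the highest species for en and the lowest for inv, both without overlap, and D. virilis was the lowest for en only.

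D. ananassae differed from its relatives in opposite directions for the paralogs at each stage. The excess of D. ananassae over D. sechellia, D. simulans and D. erecta in en was 0.55 ± 0.11, 1.16 ± 0.16, 0.52 ± 0.14 and 0.56 ± 0.09 from 3L to AA, with adjusted p-values of 0.0014, 0.00033, 0.0129 and 0.000714. The difference for inv was -0.98 ± 0.07, -0.34 ± 0.10, -0.55 ± 0.08 and -0.51 ± 0.09, with adjusted p-values of 3.12e-06, 0.0169, 0.000822 and 0.00105. In D. virilis en was lower than in the other 4 at 3L (-1.07 ± 0.10, adjusted p = 1.35e-05), p8 (-0.96 ± 0.16, adjusted p = 0.000749) and AA (-1.48 ± 0.09, adjusted p = 2.08e-06), and at p40 the difference did not pass (-0.33 ± 0.13, adjusted p = 0.059). For inv D. virilis did not pass at 3L (0.07 ± 0.07, adjusted p = 0.41), was higher at p40 (0.57 ± 0.08, adjusted p = 0.000417) and was lower in AA (-0.47 ± 0.09, adjusted p = 0.00139). Without the higher D. ananassae library the call of en at p40 (0.35) was lost, and without the lower one that of inv at p8 (-0.24).

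The ratio of en to inv within a library set D. ananassae above and D. virilis below the other species with libraries at all stages. At 3L it was 2.20 and 2.39 (D. ananassae), 1.04 and 1.03 (D. simulans), 0.814 and 0.619 (D. erecta), 0.659 and 0.709 (D. sechellia) and 0.474 and 0.468 (D. virilis). In AA it was 1.32 and 1.31 (D. ananassae), 0.886 and 0.799 (D. simulans), 0.614 and 0.640 (D. erecta), 0.465 and 0.453 (D. sechellia) and 0.362 and 0.377 (D. virilis). D. ananassae was highest, D. simulans next and D. virilis lowest in the ratio of means at each of the 4 stages. D. ananassae against D. virilis stood at 2.30 and 0.471 at 3L and 2.02 and 0.410 at p8. The gap was smaller later, at 1.36 and 0.416 at p40 and 1.31 and 0.369 in AA. The ratio was not tested, and the values behind it are not divided by transcript length.

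The ratio of ptc to hh, target to ligand, also set D. ananassae apart. It was 7.66 and 8.95 there at 3L, 12.3 and 12.6 at p8 and 10.8 and 9.65 at p40, against 2.97 to 5.19 at 3L, 3.05 to 6.10 at p8 and 3.12 to 6.89 at p40 in the 8 libraries of the other species. The D. melanogaster means gave 3.10, 2.97 and 2.35. Adult ratios rested on too few hh reads to be read.

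**Figure D3:**
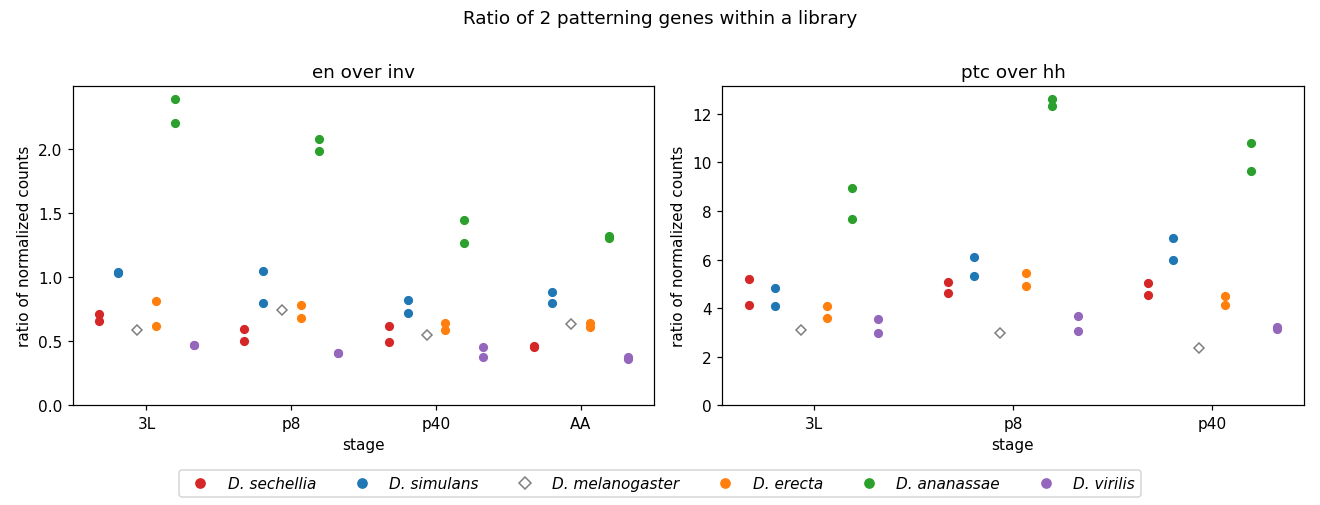
Ratio of the normalized counts of en to inv (left, 4 stages) and of ptc to hh (right, 3 stages), with a point per library and an open diamond for the D. melanogaster means. D. ananassae is highest in both ratios at each stage shown, at 1.26 to 2.39 for en over inv and 7.66 to 12.6 for ptc over hh.

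Counted over the genes tested, D. virilis was lower than the other 4 species in 4 of 6 members and higher in 0 at 3L (background 35.0% lower and 36.9% higher), in 5 and 0 of 7 at p8 (32.7% and 34.3%), in 2 and 3 of 7 at p40 (34.0% and 34.9%) and in 5 and 1 of 6 in AA (34.7% and 35.7%). The genes higher in D. virilis at p40 were hh, smo and inv, and in AA smo. The D. virilis pupae were taken at later hours, chosen by the authors to match morphology, so species and hours cannot be told apart at p8 and p40.

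D. ananassae was higher than D. sechellia, D. simulans and D. erecta in 3 of 6 members at 3L (ptc, en and dpp) and lower in 3 (hh, smo and inv), beside 33.7% and 33.4% of all genes. It was higher in 4 and lower in 2 of 7 at p8 (31.4% and 30.6%), 3 and 1 of 7 at p40 (29.2% and 29.1%) and 3 and 2 of 6 in AA (35.2% and 34.1%). ptc turned from higher at p40 (1.07 ± 0.13) to lower in AA (-0.31 ± 0.10), the latter not past the threshold without the lower of the D. ananassae libraries (-0.25). At 3L the call of smo was lost without the lower D. ananassae library (-0.16). The fat body markers were at 4441 ppm in D. ananassae at 3L, with 3 of 5 above 0 and Fbp2 and Lsp1alpha at 0, and at 2523 ppm in D. simulans, with all 5 above 0, and their part in the results was not tested.

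The specialist D. erecta, which feeds on Pandanus fruit, was lower than the generalist D. simulans in 3 of 6 members at 3L (ptc, en and dpp) and higher in 0, beside 28.8% and 30.6% of all genes. At p8 it was lower in 6 of 7 and higher in 1, ci (28.7% and 28.9%), and the counts at p40 were again 6 and 1 (24.3% and 24.8%). In AA it was lower in smo, en, inv and dpp and higher in ptc and ci, 4 and 2 of 6 (29.5% and 29.7%). These counts leaned on single libraries. At p40 they fell from 7 to 2 or 3 without either D. erecta library and to 3 without the D. simulans library higher in hh, and at p8 to 4 without the D. simulans library higher in hh. The p40 calls of hh, en, inv and dpp were lost without either D. erecta library or the D. simulans library higher in hh. That of en was also lost without the other D. simulans library. At p40 the call of ci (0.65) was lost without the higher D. erecta (0.60) or the lower D. simulans library (0.53), and that of inv (-0.31) also without any 1 library of D. sechellia or D. virilis. At p8 smo (-0.28) was lost without either D. erecta library, the higher D. simulans library or either D. virilis library, en without the lower D. erecta (-0.72) or the higher D. simulans library (-0.46), and inv without the lower D. erecta (-0.36) or the higher D. simulans library (-0.33). At 3L the call of en (-0.35) was lost without the lower D. erecta library (-0.19) and without any 1 library of D. sechellia, D. simulans or D. virilis, that of ptc without the lower D. erecta (-0.37) or the higher D. simulans library (-0.39), and that of dpp without the lower D. erecta library (-0.39).

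D. sechellia, the specialist on Morinda fruit, is a close relative of D. simulans. It was lower in 0 and higher in 2 of 6 members at 3L (smo and inv), beside 24.6% and 26.4% of all genes. It was lower in 4 of 7 at p8 (hh, ptc, en and dpp) and higher in 0 (25.7% and 25.4%), lower in 3 of 7 at p40 (ptc, smo and dpp) and higher in 0 (21.0% and 21.8%), and lower in 3 of 6 in AA (ptc, en and dpp) and higher in 0 (24.2% and 24.5%). The adult differences were -0.67 ± 0.12 for ptc, -0.98 ± 0.11 for en and -0.88 ± 0.16 for dpp, and -0.55, -0.91 and -1.04 without the library rich in eye markers. At p8 the calls of hh (-0.63) and en (-0.48) were lost without the D. sechellia library lower in en, and that of en (-0.39) without the higher D. simulans library. At p40 the call of dpp (-0.71) was lost without the lower D. sechellia library, and at 3L that of smo without the higher D. sechellia (0.30) or the lower D. simulans library (0.23).

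Between the specialists, D. sechellia was higher in 3 and lower in 0 of 6 members at 3L (21.1% and 21.9% of all genes), higher in 2 (smo and inv) and lower in 1 (ci) of 7 at p8 (17.2% and 18.4%), higher in 2 (smo and inv) and lower in 0 of 7 at p40 (15.0% and 15.4%), and higher in 3 (smo, inv and dpp) and lower in 2 (ptc and ci) of 6 in AA (24.5% and 28.0%). The differences of hh, ptc, en and dpp at p8 were 0.04 ± 0.17, -0.04 ± 0.19, 0.07 ± 0.20 and 0.05 ± 0.12, with adjusted p-values of 0.868, 0.89, 0.828 and 0.791. At p40 both calls, smo and inv, were lost when any 1 library of D. erecta, D. sechellia or D. virilis was left out, and at 3L those of ptc and inv without the lower D. erecta library (0.40 and 0.30) or the higher D. sechellia library (0.35 and 0.32). At p8 the calls of ci (-0.50) and inv (0.42) were lost without the D. erecta library higher in ci and lower in inv, and that of inv without the higher D. sechellia library (0.41). These comparisons share libraries with those against D. simulans and are not independent of them.

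The study's own measure of variability, the mean absolute log2 fold change (ALFC) over the 15 pairs of the 6 species, was computed from the authors' means on log2(value + 1) with a listed 0 left out. Its spread is the SD over the 32 choices of 1 library per species. The background was all genes above 0 in the 6 species and at 30 or more in at least 1. The paper's minimum for the whole transcriptome, above 50 in all species, was stricter, and its effect on the medians was not tested. At 3L all 8 members were below the median of the 7151 background genes, 0.69, with values from 0.38 ± 0.03 for hh to 0.68 ± 0.07 for dpp. With a pseudocount of 10 it was 7 of 8, and dpp ran from 0.57 to 0.79 over the library choices. At p8 7 of 8 were below 0.82, or 4 of 8 without D. melanogaster. At p40 7 of 8 were below 0.84, or 5 without D. virilis and 6 without D. melanogaster. In AA 3 of the 6 members at 30 or more in some species were below 0.83, or 5 without D. virilis and 2 without D. melanogaster.

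inv was the least variable member from p8 on, except that en was lower at p40. Its mean ALFC was 0.27 ± 0.05 at p8, lower than that of all but 4.39% of genes, 0.40 ± 0.02 at p40 and 0.48 ± 0.05 in AA, while its paralog en had 0.78 ± 0.07, 0.38 ± 0.06 and 0.92 ± 0.02. hh stayed low in the pupa, at 0.38 ± 0.07 at p8. ci moved from 0.51 ± 0.06 at p40 to 1.14 ± 0.05 in AA, the highest of the members tested there, and dpp from 0.73 ± 0.10 to 1.05 ± 0.05.

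**Figure D4:**
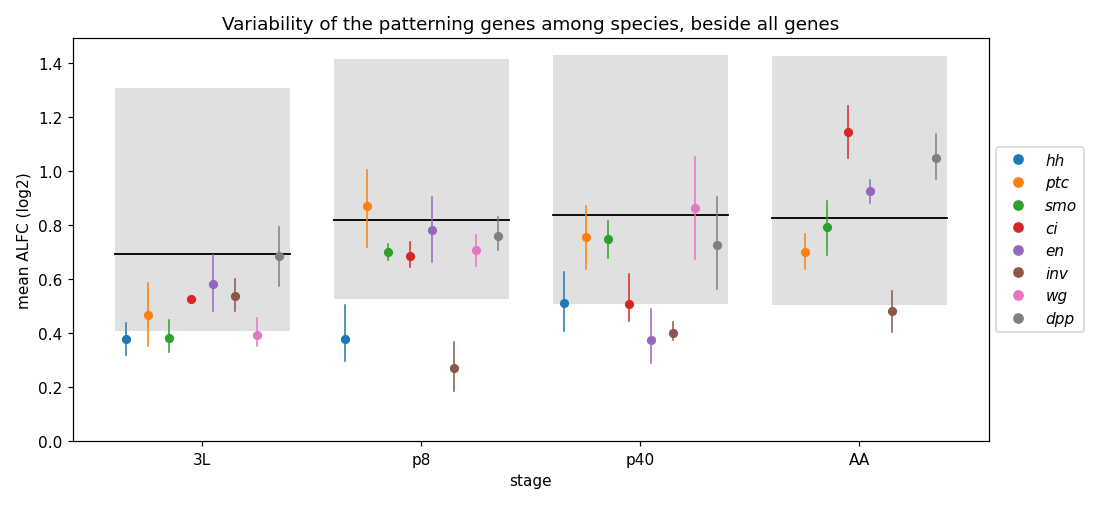
Mean ALFC (log2) of the members at each stage, with lines spanning the lowest and highest value over the 32 choices of libraries (none for ci at 3L). The black line is the median and the grey band the middle 50% of all genes. The points of the 8 members lie below the black line at 3L, where the span of dpp crosses it, and ci, en and dpp lie above it in AA.

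The convergence index asks whether D. sechellia is closer to D. erecta than D. simulans and D. melanogaster are. It is the mean ALFC of those generalists from D. erecta minus that of D. sechellia. It was above 0 in 3 of 7 members (3L), 5 of 7 (p8), 6 of 7 (p40) and 3 of 6 (AA), beside 68.2%, 73.9%, 66.9% and 57.3% of the same background genes. dpp was positive throughout, at 0.51 ± 0.03, 0.71 ± 0.09, 0.41 ± 0.21 and 0.87 ± 0.16, where the spread is again the SD over library choices. hh was at 0.66 ± 0.14 at p8 and 0.60 ± 0.16 at p40, whereas inv was at -0.12 ± 0.09 at p8 and -0.09 ± 0.08 in AA. ptc went from 0.47 ± 0.17 at p8 to -0.28 ± 0.12 in AA. The medians over all genes were 0.17, 0.30, 0.20 and 0.09.

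Other genes of the pathways were taken from lists written with earlier results of these data known. Of the 21 genes listed for Hedgehog signalling 18 could be tested at 3L and all 18 were called, with a median range of 1.05 against 1.46 over all genes, and in AA 16 of 18 were called, with a median of 1.30 against 1.74. For Wingless signalling 22 of 23 tested genes were called at 3L (median 1.27) and 24 of 24 in AA (median 2.15). For Dpp signalling 16 of 16 were called at 3L (median 1.35) and 16 of 17 in AA (median 1.82), and of the disc targets and antennal field genes 22 of 22 at 3L (median 1.37) and 15 of 17 in AA (median 1.91). With over 90% of all genes called at each stage, these counts are near the background.

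In direction, the lists were counted in each comparison at all 4 stages, and the counts below are given in the order 3L, p8, p40 and AA. The genes tested numbered 18, 18, 18 and 18 for Hedgehog, 23, 26, 26 and 24 for Wingless, 16, 16, 17 and 17 for Dpp and 22, 23, 23 and 17 for the disc genes.

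D. virilis against the other 4 was lower in 10, 8, 6 and 8 and higher in 4, 2, 7 and 4 of the Hedgehog genes, beside 32.7% to 35.0% of all genes lower and 34.3% to 36.9% higher over the stages. It was lower in 12, 12, 7 and 10 and higher in 4, 8, 11 and 6 of the Wingless genes, lower in 11, 9, 6 and 11 and higher in 2, 2, 3 and 4 of the Dpp genes and lower in 16, 10, 6 and 4 and higher in 2, 3, 6 and 1 of the disc genes. At p40 more Hedgehog and Wingless genes were higher than lower and the disc genes were even, while at 3L, p8 and AA more were lower in all 4 lists.

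D. erecta against D. simulans was lower in 5, 5, 6 and 7 and higher in 6, 4, 3 and 3 of the Hedgehog genes, beside 24.3% to 29.5% lower and 24.8% to 30.6% higher of all genes. It was lower in 6, 14, 13 and 7 and higher in 8, 7, 6 and 9 of the Wingless genes, lower in 10, 11, 8 and 9 and higher in 3, 1, 2 and 2 of the Dpp genes and lower in 8, 12, 11 and 6 and higher in 8, 5, 4 and 3 of the disc genes. More Dpp genes were lower than higher at each stage, whereas the Hedgehog list at 3L and the Wingless list at 3L and in AA had more genes higher.

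D. sechellia against D. simulans was lower in 4, 4, 6 and 10 and higher in 7, 4, 3 and 3 of the Hedgehog genes, beside 21.0% to 25.7% lower and 21.8% to 26.4% higher of all genes. It was lower in 8, 14, 12 and 17 and higher in 5, 7, 6 and 4 of the Wingless genes, lower in 5, 7, 10 and 11 and higher in 3, 1, 2 and 2 of the Dpp genes and lower in 9, 11, 9 and 10 and higher in 5, 3, 4 and 3 of the disc genes. The Hedgehog list had more genes higher at 3L and as many higher as lower at p8, and the other counts had more lower.

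D. ananassae against D. sechellia, D. simulans and D. erecta was lower in 9, 7, 7 and 5 and higher in 7, 7, 4 and 9 of the Hedgehog genes, lower in 7, 3, 5 and 6 and higher in 11, 15, 17 and 11 of the Wingless genes, lower in 1, 1, 1 and 3 and higher in 9, 8, 10 and 7 of the Dpp genes and lower in 9, 3, 5 and 6 and higher in 8, 14, 8 and 6 of the disc genes, beside 29.1% to 34.1% lower and 29.2% to 35.2% higher of all genes. D. sechellia against D. erecta was lower in 2, 1, 2 and 6 and higher in 5, 5, 2 and 1 of the Hedgehog genes, lower in 7, 4, 5 and 14 and higher in 5, 4, 2 and 2 of the Wingless genes, lower in 1, 2, 4 and 4 and higher in 8, 2, 1 and 0 of the Dpp genes and lower in 3, 1, 2 and 3 and higher in 1, 1, 3 and 1 of the disc genes, beside 15.4% to 28.0% and 15.0% to 24.5%. Of these, the Wingless and Dpp lists had more genes higher than lower in D. ananassae at each stage.

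The genes with the widest ranges in these lists mostly stood apart in 1 or 2 of the species with libraries, to which the values refer unless D. melanogaster is named. tow, from the Hedgehog list, had 1307 and 1113 (D. simulans) at 3L and 14.9 to 42.0 in the other libraries (log2 range 6.20, adjusted p = 2.9e-07). Gprk1, a gene of the G protein-coupled receptor kinases, ranged from 157 and 415 (D. ananassae) to 3606 and 3810 (D. sechellia). pan, the transcription factor of Wingless signalling, stood at 32.5 and 44.0 (D. simulans) and 28.9 and 47.4 (D. ananassae) against 1273 to 1689 in the other libraries, and sgg, the kinase that targets Armadillo, at 135 and 137 (D. simulans) against 1589 to 4396. The ligand gene mav was lowest in D. virilis (289 and 342) and D. ananassae (460 and 488), and shn, a cofactor of Dpp signalling, was at 572 and 676 (D. virilis) and at a mean of 434 in D. melanogaster, against 1515 to 4504 in the other libraries.

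Among the disc genes at 3L hth, an antennal selector gene, ran from 2323 and 2800 (D. ananassae) to 16448 and 17935 (D. simulans), and sd from 484 and 539 (D. simulans) to 2556 and 2619 (D. erecta). In AA the same rule named tow again (D. simulans at 5803 and 5844, the other libraries at 147 to 340.4), shf, whose product helps Hedgehog spread (D. ananassae at 18.4 and 24.1, D. virilis at 582 and 589), the Wingless receptor gene fz3 (D. virilis at a mean of 105, D. erecta at 2436 and 2588) and por, whose product lipidates Wnt ligands (D. simulans at 1965 and 2275, the other libraries at 128 to 209). It also named srw (D. virilis at 342 and 357, the other libraries at 0 to 6.90), tok (11.1 to 300), rn (D. sechellia at 2390.3 and 2442, the other libraries at most at 50.6) and al (D. ananassae at 6.02 and 11.3, the other libraries at 70.2 to 198). No member tested had a range above 2.62, but the genes above were named for the widest ranges of their lists. The median range of the members tested was 1.18 at 3L, against 1.05 to 1.37 in the lists. In AA it was 2.09, against 1.30 (Hedgehog), 2.15 (Wingless), 1.82 (Dpp) and 1.91 (disc genes). Each species was mapped to its own transcripts, and the part of the transcript models in these ranges was not tested.

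Last, the pattern of each member over the 24 columns of species and stage was set beside all other genes, by Pearson's r of log2(ppm + 1) over the 7006 genes above 0 in all columns. Columns share species, libraries and stages, so r is a description. The genes most like hh were d (r = 0.98), Inx3 (0.98) and sob (0.98). wg, over the 20 columns outside D. simulans, was most like sob (0.98), ihog (0.98), a Hedgehog co-receptor gene, and Inx3 (0.98), and hh ranked next (0.98). ptc was most like N (0.97), the Notch receptor gene, LanA (0.96) and shg (0.96), the gene of E-cadherin.

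smo was most like sle (0.95), O-fut1 (0.94) and tsr (0.94), ci like Apc2 (0.94), CG7154 (0.93) and CG4496 (0.91), and dpp like Tollo (0.94), rb (0.94) and CG43759 (0.93). en was most like dome (0.89), Mrtf (0.89) and CG3634 (0.87), and inv like MED7 (0.88), CG31249 (0.85) and CG14480 (0.85). Among the members themselves r was highest between hh and wg and lowest between inv and dpp (0.42). en and inv had r = 0.55, and inv ranked 958 among the 7005 genes by likeness to en.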

How the data were processed

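RNA-seq was made from antennal discs or antennae of 5 species at 4 stages, with 2 libraries per species and stage. The authors called bases with CASAVA 1.8, mapped each species to its FlyBase transcripts with BWA 0.7.8, counted reads, matched genes across species through FlyBase orthology, with the most expressed transcript standing for a gene, and normalized each stage with DESeq2. The deposited signal is a mean normalized count, averaged by the authors for each species at each stage, not divided by transcript length, and the 4 D. melanogaster columns are means over libraries that are not among these samples. From these means the counts and size factors of the 2 libraries were recovered, where exactly 1 pair of whole counts fitted the listed digits (10 at 3L and in AA, 15 at p8 and p40). Tested on simulated data, 13875 of 14035 values were resolved at 3L and all of 14102 at p8, each rightly. In 66.7% to 93.4% of values both recovered counts were even, so reads may not be independent fragments, and no counting interval is given.

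Species were compared within a stage by limma 3.58.1 (R 4.3.3) on log2(value + 1) with a mean-variance trend, a term for species and Benjamini-Hochberg adjustment over all genes tested, those above 0 in all 5 species and at 30 or more in at least 1. On simulated data with a log2 change of 1 the species test called 192 of 200 changed genes and 8 unchanged ones among 4996 genes. Levels in ppm, used across stages, are relative to the column totals of the listed values. Members and lists were chosen with earlier results of these data known. The genes named are the 8 members, from each list the 2 with the widest range among those called at 3L and in AA, and the 3 most alike in pattern to each member. Alternatives were other pseudocounts (0.5 and 10), other minimums, rescaled species, no trend, leaving out D. virilis, D. melanogaster or single libraries, other scales across stages and other measures of likeness, and, chosen after seeing the data, leaving out D. simulans. Python 3.11.15 with numpy 2.4.6, pandas 2.3.3 and matplotlib 3.10.9 was used for the rest.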

Additional observations from a re-analysis of the deposited data

Results flagged for a closer look

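In 4 cases a difference between a pair of species had 1 direction at some stages and the opposite direction at another, with libraries that did not overlap at either. The difference between stages was itself not tested, since each stage was normalized on its own. ptc in D. erecta against D. simulans was at -0.41 ± 0.12 (SE) at 3L, -0.86 ± 0.19 at p8 and -1.22 ± 0.16 at p40, and at 0.47 ± 0.12 in AA. ptc in D. sechellia against D. erecta was at 0.44 ± 0.12 at 3L and 0.41 ± 0.16 at p40, the latter not past the threshold of limma's test (adjusted p = 0.0879), and at -1.14 ± 0.12 in AA.

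smo in D. sechellia against D. simulans was at 0.35 ± 0.10 at 3L and 0.23 ± 0.10 at p8 (adjusted p = 0.079), and at -0.59 ± 0.12 at p40. inv in D. erecta against D. simulans was at 0.20 ± 0.09 at 3L (adjusted p = 0.0856), -0.43 ± 0.12 at p8, -0.31 ± 0.10 at p40 and -0.84 ± 0.11 in AA.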

How the results depend on the processing

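No paired analysis was possible because the recovered libraries of a species carry no replicate number. Of 156 tests of a member, 112 kept their side of the threshold under every alternative run, and 0 called differences changed direction. The members called by the species test stayed at 6 of 6 at 3L and in AA and at 6 to 7 of 7 at p8 and p40 when each library was left out in turn. Over the same leave-one-out fits, the counts for D. virilis were 4 to 4 at 3L, 5 to 6 at p8, 4 to 7 at p40 and 6 to 6 in AA, and for D. ananassae 5 to 6, 4 to 6, 3 to 5 and 4 to 5. D. erecta against D. simulans gave 1 to 4, 4 to 7, 2 to 7 and 5 to 6, D. sechellia against D. simulans 1 to 3, 2 to 4, 2 to 4 and 3 to 3, and D. sechellia against D. erecta 1 to 3, 1 to 3, 0 to 3 and 4 to 5. The lone library left of a species is assumed to vary like the other species.

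At p40 D. sechellia against D. erecta, with 2 members called, gave 0 in limma without the trend and 1 without D. virilis, where smo and inv were lost and ci (-0.49) was called. The cause was not tested. At p8, 4 members in place of 7 were below the median ALFC without D. melanogaster, and in AA 5 in place of 3 without D. virilis. On the scale of the median of genes above 50, 3 members in place of 6 were lower and 1 in place of 0 higher at p8 than at 3L in every species. Adult hh and wg rest on 16 reads or fewer per library.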
